A study of Mus musculus with 18 samples.

Results

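RNA sequencing of mouse cerebral cortex compared animals labelled Alg13 knockout with animals labelled wild type on day 1 after birth. The comparison used 6 of the 18 libraries of the series, 3 labelled knockout and 3 labelled wild type, and covered every gene of the expression table. The other 12 libraries were knockout and wild type cortex at 7 and 30 days, again 3 of each, and entered the model to estimate the spread between replicates. The sources used here do not give how the knockout was made, the strain, the sex, or whether a replicate is 1 animal. The p-values therefore measure only how far these libraries differ from one another, which may be technical. The labels give the same batch date for all 18 libraries, so no batch could be separated. The series asked how loss of Alg13 affects the distribution and migration of cortical interneurons.

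Alg13 is an X-linked gene for the catalytic subunit of an enzyme on the cytosolic face of the endoplasmic reticulum. Together with its membrane anchor Alg14 it adds the second N-acetylglucosamine to the dolichol-linked sugar chain that is later transferred to proteins as an N-glycan. The neonatal cortex still receives migrating inhibitory interneurons, its neurons are extending processes and forming synapses, and astrocytes and oligodendrocytes are beginning to appear. Variants of the human gene are known in developmental and epileptic encephalopathy.

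Expression was given as FPKM, which corrects fragment numbers for transcript length and library total. The table gave no read counts, so the depth of the libraries is unknown apart from a relative depth, which ran from 0.933 to 1.214 among the 6 day 1 libraries. Differences are knockout minus wild type on the log2(FPKM + 1) scale with their standard error (SE), a scale that makes changes of weakly expressed genes look smaller, and come from limma fitted to 13347 genes. A gene was called when its two-sided p, adjusted by the Benjamini-Hochberg method over all 13347 genes, was under 0.05. Each gene had 1 estimate of spread, shared by all ages. In a fit that weighted libraries by how closely they matched their group, the weights ran from 0.0744 to 1.69 at day 1. They ran from 0.499 to 3.58 at day 7 and from 0.439 to 4.65 at day 30. The SE and p-values of the main fit may therefore be too small for day 1. All 22 genes of cortical excitatory neurons and layers were detected in each of the 6 libraries, with sums of 1020, 886 and 837 FPKM in knockout and 934, 1045 and 635 FPKM in wild type. Wild type replicate 3 stood apart from the other 5 libraries. Its correlations with them across genes were 0.893 to 0.903, against 0.958 to 0.992 among the other 5. Its salivary gland genes summed to 38198 FPKM, against 12.2 to 37.9 in the others, and its brown fat genes to 2316 FPKM, against 20.5 to 35.1. The main results below are therefore given with all libraries and without wild type replicate 3. Knockout replicate 3 and wild type replicate 1 formed the ends of the second principal component, at -35.0 and 26.7. Wild type replicate 2 correlated with knockout replicates 1 and 2 at 0.988 and 0.990, and with wild type replicate 1 at 0.979. The female transcript Xist read 0.0378, 0.0273 and 23.8 FPKM in the knockout libraries and 0.065, 157 and 39.4 in the wild type libraries, and the Y-linked Ddx3y read 14.5, 12.9 and 2.77 FPKM in knockout and 20.5, 0.0309 and 11.7 in wild type. Knockout replicate 3 and wild type replicate 3 thus held both transcripts, and the groups were not balanced in them.

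Alg13 (Entrez 67574) measured 2.50, 2.57 and 1.04 FPKM in the libraries labelled knockout and 3.27, 1.93 and 2.79 FPKM in those labelled wild type. The groups overlapped, because wild type replicate 2 lay below knockout replicates 1 and 2. The difference was -0.30 (SE 0.20; adjusted p = 0.38 in limma), and an exact two-sided permutation test gave p = 0.4, where the smallest p that 3 against 3 libraries allow is 0.1. Without wild type replicate 3 the difference was -0.27. Gene-level FPKM therefore did not check the genotype labels, and the names knockout and wild type below are those of the labels. None of the 7 tested genes of the cytosolic steps of oligosaccharide assembly was called. Alg14 read 4.79, 4.01 and 5.67 FPKM in knockout libraries, against 2.17, 4.02 and 5.38 in wild type libraries. The groups overlapped, with the lowest value in wild type replicate 1 (log2 difference 0.31, SE 0.19, limma adjusted p = 0.333). Without wild type replicate 3 the difference was 0.54 (SE 0.16, limma adjusted p = 0.0836). Among 22 genes of the lumenal steps and of the transfer to protein, 14 had positive differences and the median was 0.09, against 0.02 over all genes. Without wild type replicate 3, 19 were positive and the median was 0.20, against 0.03 over all genes. None was called in either fit.

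Of the 13347 genes, 69 were called. There were 48 higher in knockout cortex, 0.36% of the genes tested, and 21 lower, 0.157%. Without wild type replicate 3 the calls came to 109 higher (0.817%) and 115 lower (0.862%). 58 genes were called in both fits with the same sign, 40 higher and 18 lower, and 2 of the 40 are gene models without a name. Their differences ran from 0.44 to 1.49 among the higher genes and from -2.24 to -0.49 among the lower ones. All 69 called genes had knockout and wild type values that did not overlap, as did 1190 genes higher in knockout (8.92% of those tested) and 784 lower (5.87%). Quantile normalization gave 40 higher and 9 lower. The number of calls rested on individual libraries. Of the 58 genes, 9 kept their call without knockout replicate 3, 23 without knockout replicate 2, 33 without knockout replicate 1, 32 without wild type replicate 1 and all 58 without wild type replicate 2, where 897 higher and 634 lower genes were called in total. With only the 6 day 1 libraries in the fit no gene was called, while 767 had an unadjusted p under 0.05 in limma. The sign of all 58 was the same in each of these fits. Since their knockout and wild type values did not overlap, leaving out libraries could not have changed it.

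**Figure D1:**
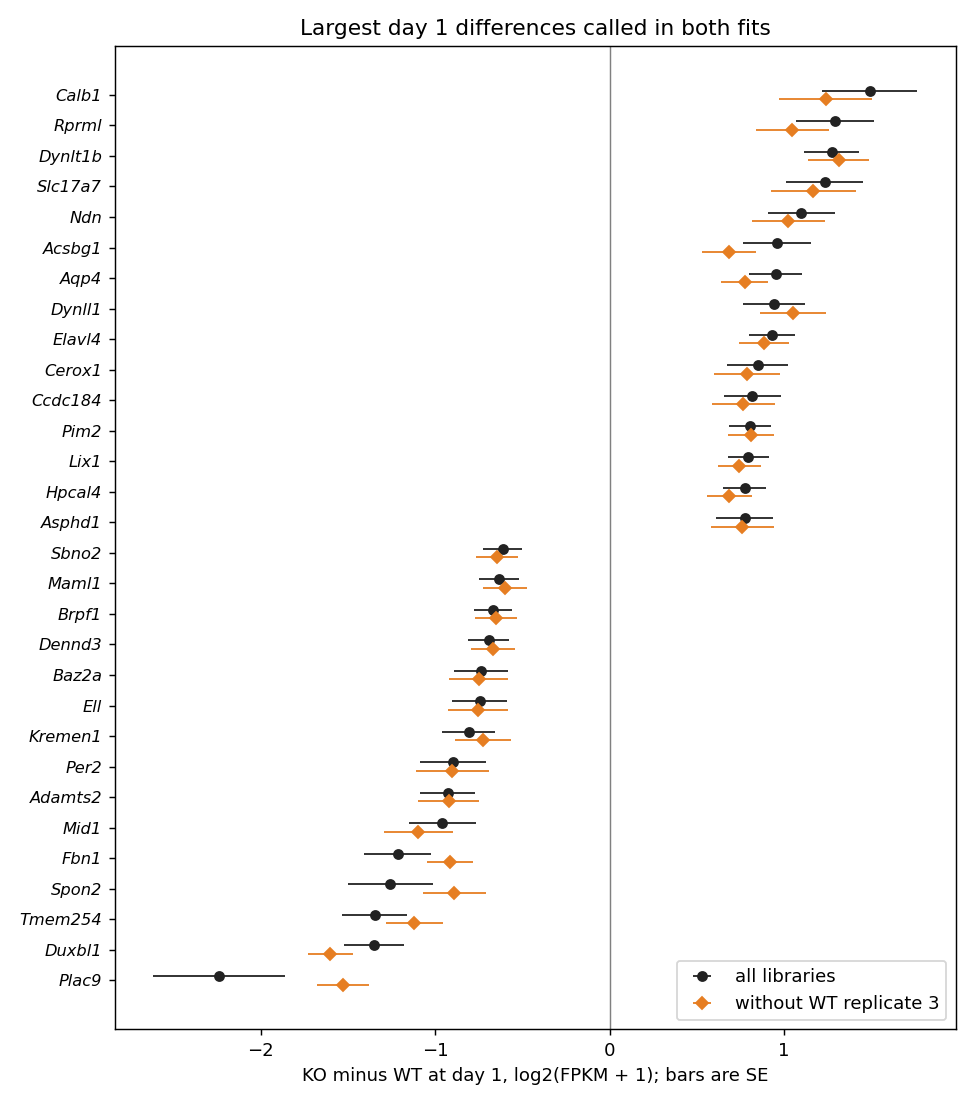
Knockout minus wild type difference at day 1 for the 15 largest rises and 15 largest falls called both with all libraries (black circles) and without wild type replicate 3 (orange diamonds). The horizontal axis is the difference in log2(FPKM + 1), and bars are standard errors. Plac9 moved most when that library was left out, to -1.53 from -2.24. No gene could change side, since those shown were chosen for the same sign in both fits.

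8 genes were called whichever single day 1 library was left out, namely Dynlt1b, Elavl4, Pim2, Lix1, Zkscan3 and Scoc higher in knockout and Tmem254 and Duxbl1 lower. Zkscan3 and Scoc lay outside the naming rule and were singled out after their values were seen. Dynlt1b, a light chain of the microtubule motor dynein, read 55.5, 50.6 and 65.1 FPKM in knockout libraries, against 20.2, 24.5 and 24.3 FPKM in wild type libraries. The lowest knockout library was above the highest wild type library by a wide margin, and the ratio of the means was 2.48 (log2 difference 1.27, SE 0.16, adjusted p = 0.00421; 1.31 without wild type replicate 3). Dynlt1b has close copies, so its fragments can be divided among them and its level is uncertain. The copies Dynlt1a, Dynlt1c and Dynlt1f differed by 0.32, 0.23 and 0.40, and none was called. Elavl4, a neuronal RNA-binding protein of the Hu family, read 19.7, 17.7 and 14.1 FPKM in knockout libraries and 7.11, 10.7 and 7.88 FPKM in wild type libraries. Its means were 17.2 ± 2.81 FPKM in knockout and 8.58 ± 1.91 FPKM in wild type (SD, n = 3 each), a log2 difference of 0.93 (limma adjusted p = 0.00782; 0.89 without wild type replicate 3).

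Pim2, a serine/threonine kinase that promotes survival, read 6.14, 6.69 and 8.14 FPKM in knockout libraries and 2.97, 4.18 and 3.57 FPKM in wild type libraries. Lix1 read 6.06, 4.22 and 4.52 FPKM in knockout libraries and 2.65, 2.39 and 2.15 FPKM in wild type libraries. Neither gene overlapped between groups, and their log2 differences were 0.81 and 0.80, each with SE 0.12, and 0.81 and 0.74 without wild type replicate 3. Zkscan3, a zinc-finger protein known as a repressor of autophagy genes, read 27.5, 23.2 and 22.7 FPKM in knockout libraries and 12.6, 14.6 and 15.3 FPKM in wild type libraries. Scoc, a Golgi-associated coiled-coil protein, read 47.4, 54.7 and 52.2 FPKM in knockout libraries and 33.8, 34.4 and 26.6 FPKM in wild type libraries. Neither overlapped between groups, and their ratios of means were 1.73 and 1.63 (log2 differences 0.75 and 0.69, limma adjusted p = 0.0126 and 0.00782; 0.80 and 0.58 without wild type replicate 3).

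**Figure D2:**
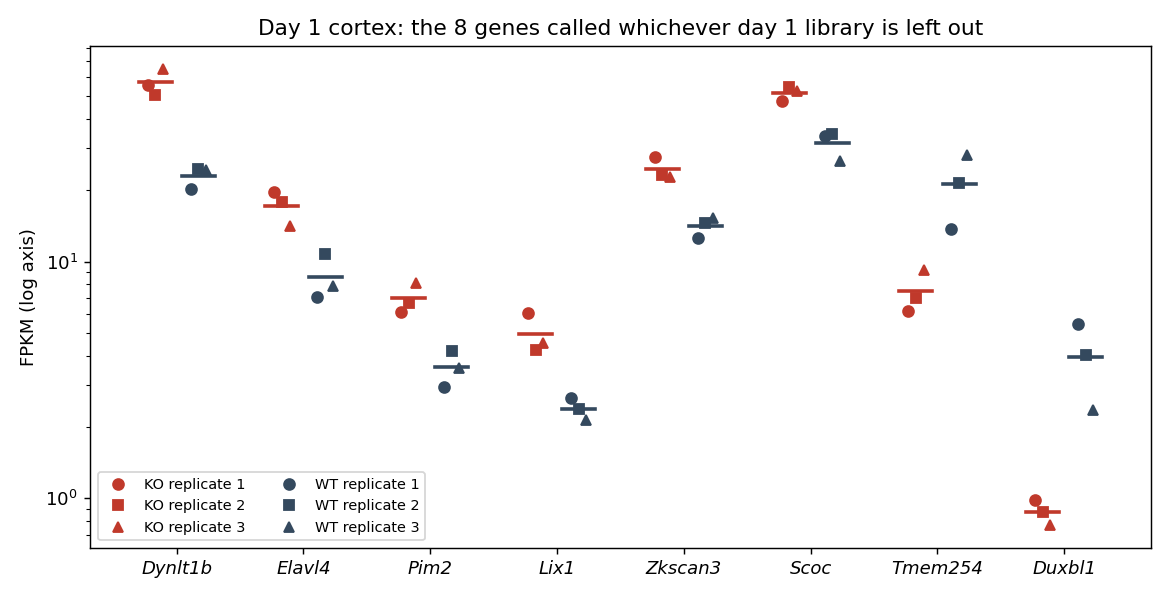
FPKM on a log axis of the 8 genes called whichever day 1 library was left out, with the 3 knockout libraries (red) left of the 3 wild type libraries (grey-blue). Marker shapes give the replicate and horizontal lines the group means. Knockout and wild type values did not overlap for any of the 8 genes.

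Tmem254, Duxbl1 and Plac9 are neighbours on chromosome 14, where the region is duplicated, and were all lower in knockout cortex. Tmem254, a transmembrane protein, read 6.16, 7.02 and 9.24 FPKM in knockout libraries and 13.7, 21.5 and 28.3 FPKM in wild type libraries (log2 difference -1.35, SE 0.19, adjusted p = 0.00771; -1.12 without wild type replicate 3). Duxbl1, a double homeobox gene, read 0.986, 0.876 and 0.774 FPKM in knockout libraries and 5.44, 4.03 and 2.37 FPKM in wild type libraries (-1.35, SE 0.17, adjusted p = 0.00421; -1.60 without wild type replicate 3). Plac9, a small secreted protein, read 0.46, 0.599 and 1.11 FPKM in knockout libraries and 3.42, 4.44 and 20.5 FPKM in wild type libraries. The highest Plac9 value was in wild type replicate 3. Leaving that library out made the difference smaller but its adjusted p lower (-1.53, SE 0.15, adjusted p = 0.000112, against -2.24, SE 0.38, adjusted p = 0.0164, with all libraries). Without knockout replicate 2 or knockout replicate 3 the Plac9 call was lost. In the reference the 250 bases upstream of a start of Tmem254a and of a start of Tmem254c are identical at all 250 positions, while the other upstream windows of the Tmem254 copies compared were identical at 21.2% to 28% of positions and those of Plac9a and Plac9b at 29.2%. These windows were compared position by position without alignment, so a shifted start would lower the share even between copies of the same sequence. The low shares therefore do not show that the copies differ. How far the transcripts of the copies share sequence was not tested, and the values of the 3 genes are reported as uncertain.

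Among the other large rises, Calb1, the calcium buffer calbindin that marks a class of interneurons and some pyramidal cells, had the largest rise, with 5.71, 5.45 and 13.3 FPKM in knockout libraries and 2.94, 2.32 and 1.13 FPKM in wild type libraries. Knockout replicate 3 was far above the other knockout libraries, and the call was lost without it (log2 difference 1.49, SE 0.27, adjusted p = 0.0256; 1.24 without wild type replicate 3). Rprml, a relative of the cell-cycle inhibitor reprimo, read 4.98, 5.81 and 10.3 FPKM in knockout libraries and 2.98, 2.51 and 1.25 FPKM in wild type libraries, again with the highest value in knockout replicate 3 and the lowest in wild type replicate 3 (log2 difference 1.29; 1.05 without wild type replicate 3). Its call was lost without knockout replicate 3. Slc17a7, the vesicular glutamate transporter VGLUT1, read 20.0, 28.5 and 48.3 FPKM in knockout libraries and 10.2, 16.3 and 11.2 FPKM in wild type libraries. Its log2 difference was 1.23 (SE 0.22; 1.17 without wild type replicate 3), and its call was lost without knockout replicate 2, knockout replicate 3 or wild type replicate 1.

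Ndn, the imprinted gene of the neuronal protein necdin, read 150, 152 and 247 FPKM in knockout libraries and 82.1, 92.0 and 74.2 FPKM in wild type libraries. Even the lowest knockout library was above every wild type library, and the log2 difference was 1.10 (SE 0.19, limma adjusted p = 0.0204; 1.02 without wild type replicate 3). Ndn was the only one called among 23 imprinted genes tested, against 0.36% of all genes called higher, and their median difference was -0.12. Dynll1, a second dynein light chain that also binds many other proteins, read 120, 123 and 160 FPKM in knockout libraries and 47.1, 86.2 and 80.2 FPKM in wild type libraries (0.94, SE 0.18, adjusted p = 0.0322; 1.05 without wild type replicate 3), and lost its call without knockout replicate 2 or 3. Of 14 dynein genes tested 12 had positive differences with a median of 0.26, and Dynlt1b and Dynll1 were the 2 called higher, against 0.36% of all genes. Cerox1, a long RNA known to raise complex I subunits, Ccdc184, the neuronal calcium sensor Hpcal4 and Asphd1, an aspartate hydroxylase domain protein, rose by 0.77 to 0.85 and completed the 15 largest rises. Of these 4, Hpcal4 lost its call only without knockout replicate 3, while Cerox1, Ccdc184 and Asphd1 also lost theirs without knockout replicate 2 or wild type replicate 1, and Asphd1 without knockout replicate 1 as well.

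Astrocyte genes included 2 called rises among 22 tested, against 0.36% of all genes, with 15 positive differences, against 52.7% of all genes, and a median of 0.32 (0.29 without wild type replicate 3). Aqp4, the water channel of astrocyte endfeet, read 3.76, 4.48 and 5.08 FPKM in knockout libraries and 2.47, 1.89 and 1.18 FPKM in wild type libraries. Acsbg1, an acyl-CoA synthetase of astrocytes and neurons, read 6.23, 5.51 and 8.58 FPKM in knockout libraries and 3.81, 3.74 and 1.69 FPKM in wild type libraries. Both were lowest in wild type replicate 3, and without it the differences were 0.77 and 0.68, against 0.95 and 0.96 with all libraries. Summed over the list, the groups overlapped, with 548, 524 and 650 FPKM in knockout libraries and 558, 409 and 823 FPKM in wild type libraries. In bulk cortex more cells of a type and more RNA per cell cannot be told apart. Acsbg1 lost its call without any 1 of the knockout libraries, and Aqp4 without knockout replicate 3.

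The oligodendrocyte lineage list had 1 called gene among 19 tested, against 0.36% of all genes called higher. Olig1, a transcription factor of oligodendrocyte precursors, read 25.1, 26.5 and 32.3 FPKM in knockout libraries and 14.6, 19.3 and 15.5 FPKM in wild type libraries. No wild type library reached the lowest knockout library, and the log2 difference was 0.73 (SE 0.12, limma adjusted p = 0.0126; 0.69 without wild type replicate 3). The knockout values lay above all wild type values in 8 of the 19 genes, among them Olig1, Olig2, Cspg5, Ednrb, Bcas1, Mbp and Cnp, against 8.92% of all genes. The list's median difference was 0.21, and 0.22 without wild type replicate 3. Olig2, a partner of Olig1 in the same cells, read 12.5, 12.5 and 14.8 FPKM in knockout libraries and 8.67, 8.39 and 6.66 FPKM in wild type libraries, and was not called (adjusted p = 0.0614). The list's median was 0.09 when knockout replicate 3 and wild type replicate 1 were both left out, an alternative chosen after seeing the data.

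Genes of cholesterol synthesis had mostly positive differences, and their median was the same with and without wild type replicate 3. Neurons and glia of the newborn brain make their own sterol through this pathway, whose genes are activated together by the transcription factor SREBP2. Of 22 genes tested, which included 4 genes of sterol uptake, transport and feedback, 18 had positive differences with a median of 0.42, against 0.02 over all genes and 0.42 again without wild type replicate 3. Summed over the list, FPKM came to 711, 751 and 724 in knockout libraries and 487, 581 and 566 in wild type libraries, so that every knockout library was above every wild type library. Sqle and Hsd17b7 were called higher with all libraries, against 0.36% of all genes. Mvd, Cyp51 and Msmo1 were called in addition without wild type replicate 3, where 0.817% of all genes were called higher. The last 3 are named after their values were seen. Knockout values lay above all wild type values in 8 of the 22 genes, against 8.92% of all genes.

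Sqle, squalene epoxidase, read 67.1, 70.8 and 69.3 FPKM in knockout libraries and 33.7, 45.5 and 44.8 FPKM in wild type libraries. The knockout libraries differed little from each other, and the log2 difference was 0.74 (SE 0.16, adjusted p = 0.0469; 0.80 without wild type replicate 3, adjusted p = 0.0327). Cyp51, the lanosterol demethylase, showed the same narrow knockout range, with 49.2, 47.2 and 48.4 FPKM, against 27.1, 34.1 and 33.2 FPKM in wild type libraries (0.61, adjusted p = 0.0529; 0.65 without wild type replicate 3, adjusted p = 0.0419). Hsd17b7, a sterol ketoreductase, read 4.40, 5.01 and 3.94 FPKM in knockout libraries and 2.55, 2.79 and 2.51 FPKM in wild type libraries (0.59, SE 0.13, adjusted p = 0.0483). Both genes were separated in every library pair across the groups. Msmo1, the sterol methyl oxidase, read 28.7, 30.5 and 25.0 FPKM in knockout libraries and 18.9, 17.9 and 20.7 FPKM in wild type libraries (0.52, adjusted p = 0.0614; 0.58 without wild type replicate 3, adjusted p = 0.045). Mvd, mevalonate diphosphate decarboxylase, read 20.2, 20.9 and 30.5 FPKM in knockout libraries and 13.8, 14.5 and 15.9 FPKM in wild type libraries (0.64, adjusted p = 0.0531; 0.69, adjusted p = 0.0408). Knockout replicate 3 was the highest library for Mvd but not for the other 4. Hmgcs1 and Insig1 did not pass the test in either fit. Hmgcs1, which acts early in the pathway, read 208, 217 and 178 FPKM in knockout libraries and 111, 176 and 147 FPKM in wild type libraries (adjusted p = 0.161). Insig1, a feedback inhibitor of the pathway, read 24.5, 33.3 and 20.9 FPKM in knockout libraries and 34.9, 16.8 and 42.9 FPKM in wild type libraries (adjusted p = 0.683). Sqle and Hsd17b7 lost their calls without any 1 of the knockout libraries or without wild type replicate 1. When knockout replicate 3 and wild type replicate 1 were both left out, the list's median was 0.25.

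**Figure D3:**
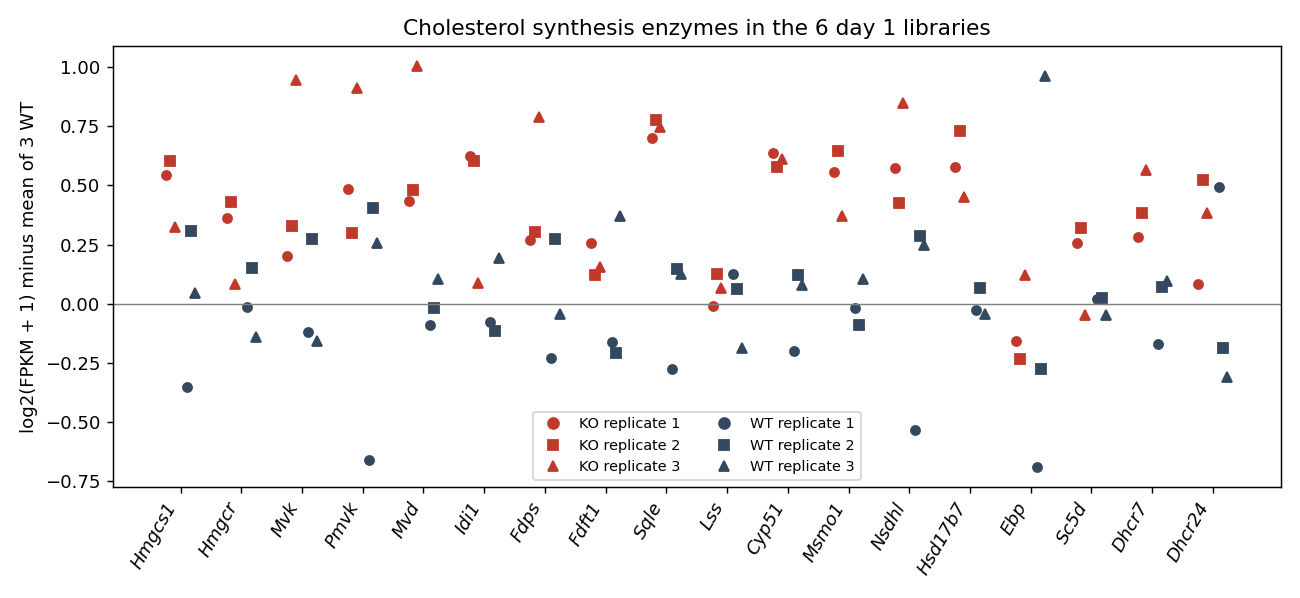
Expression of the 18 cholesterol synthesis enzymes tested in each day 1 library as log2(FPKM + 1) minus the mean of the 3 wild type libraries, with knockout libraries (red) left of wild type libraries (grey-blue) and marker shapes for the replicate. Sqle, Cyp51, Msmo1, Hsd17b7 and Mvd show knockout values above all wild type values, while Lss and Ebp overlap.

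The upstream sequences of these enzymes are shown because most genes of the list had positive differences and the 4 were called in at least 1 of the fits. They are the 250 bases before the start of each gene in RefSeq on build GRCm38.p6, which is not the GRCm39 of the expression table, and each gene lies on the minus strand. Capitals mark CCAAT on either strand (ATTGG on the printed strand) and TCACNNCAC on either strand, the first the core bound by the factor NF-Y and the second the core of the classical sterol regulatory element. Sqle has no entry in the table of sequences.
Hsd17b7, chr1:169969206-169969455: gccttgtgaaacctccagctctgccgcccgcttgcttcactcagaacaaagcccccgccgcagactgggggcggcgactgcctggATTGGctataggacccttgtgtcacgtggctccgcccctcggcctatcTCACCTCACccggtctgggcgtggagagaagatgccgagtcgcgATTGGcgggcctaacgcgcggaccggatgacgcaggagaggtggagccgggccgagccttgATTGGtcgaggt
Cyp51, chr5:4104698-4104947: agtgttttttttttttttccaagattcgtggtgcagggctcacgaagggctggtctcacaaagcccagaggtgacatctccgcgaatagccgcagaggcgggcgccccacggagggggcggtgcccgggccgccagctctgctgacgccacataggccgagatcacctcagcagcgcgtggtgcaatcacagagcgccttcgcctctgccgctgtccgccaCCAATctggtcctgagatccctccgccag
Mvd, chr8:122443423-122443672: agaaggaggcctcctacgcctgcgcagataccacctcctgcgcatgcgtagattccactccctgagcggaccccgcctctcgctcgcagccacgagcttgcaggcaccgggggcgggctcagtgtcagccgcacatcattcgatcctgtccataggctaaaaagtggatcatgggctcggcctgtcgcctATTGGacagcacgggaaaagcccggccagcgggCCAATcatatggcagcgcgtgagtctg
Msmo1, chr8:64733579-64733828: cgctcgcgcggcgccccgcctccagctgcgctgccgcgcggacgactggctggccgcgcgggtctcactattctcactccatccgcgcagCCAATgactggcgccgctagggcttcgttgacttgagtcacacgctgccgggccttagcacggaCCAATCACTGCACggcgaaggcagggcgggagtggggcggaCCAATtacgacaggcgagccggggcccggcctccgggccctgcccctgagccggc
Hsd17b7 and Msmo1 each held 3 CCAAT matches and 1 TCACNNCAC match, which in Msmo1 overlaps a CCAAT by 1 base. Mvd held 2 CCAAT matches and Cyp51 held 1, with no TCACNNCAC in either window. Over the list, 14 of the 22 genes had an entry, and CCAAT was found in all 14, against 37.5% of all genes with an entry. TCACNNCAC was found in 4 of the 14 (28.6%), against 3.63% of all genes. These letters are a description of the windows and do not show that a factor is bound.

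Genes of inhibitory neurons, which the series was about, had mostly positive differences that shrank without wild type replicate 3. Of 20 genes of GABA synthesis and of interneurons in general, 19 were positive with a median of 0.40, but without wild type replicate 3 the median was 0.13 with 14 positive, and none was called in either fit. Gad1, an enzyme of GABA synthesis, read 13.7, 14.2 and 26.2 FPKM in knockout libraries and 15.1, 9.45 and 4.73 FPKM in wild type libraries. Wild type replicate 1 lay above both lower knockout libraries, wild type replicate 3 was the lowest and knockout replicate 3 the highest. Dlx6os1, a long RNA of the interneuron lineage, had knockout values of 13.6, 8.78 and 10.1 FPKM, against 8.06, 6.18 and 2.89 FPKM in wild type libraries, without a call (adjusted p = 0.102). Calb1 was the 1 called gene among 22 interneuron subtype genes (0.36% of all genes were called higher), 16 of which were positive with a median of 0.25. Striatum genes summed to 206 FPKM in knockout replicate 3, against 61.7 and 69.7 FPKM in the other knockout libraries and 68.6 to 95.9 FPKM in wild type libraries. The summed lists of olfactory bulb and hippocampus and of thalamus, septum and hypothalamus were not highest in knockout replicate 3. Within the first list, Cdhr1 read 0.618, 0.587 and 12.5 FPKM in knockout libraries and 0.583, 0.531 and 0.189 FPKM in wild type libraries. Eomes was also highest in knockout replicate 3, at 9.86 FPKM, while Neurod1 was highest in wild type replicate 1, at 15.6 FPKM. The part of striatal or olfactory bulb RNA in the interneuron values was not tested.

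Of 22 genes of GABA receptors and the inhibitory synapse, 21 were positive with a median of 0.37, or 0.20 with 16 positive without wild type replicate 3, and none was called. Knockout values lay above all wild type values in 6 of them, against 8.92% of all genes. Glrb, the glycine receptor beta subunit, read 16.8, 18.5 and 16.2 FPKM in knockout libraries and 7.17, 13.7 and 10.6 FPKM in wild type libraries (log2 difference 0.70, SE 0.17, limma adjusted p = 0.0614; 0.72 without wild type replicate 3). Gabra4 read 5.25, 5.01 and 5.30 FPKM in knockout libraries and 2.67, 3.21 and 3.10 FPKM in wild type libraries, and Gabrg1 read 1.41, 1.4 and 1.31 FPKM in knockout libraries and 0.704, 0.775 and 0.419 FPKM in wild type libraries. Both are subunits of the GABA-A receptor, and both missed the threshold (adjusted p = 0.0802 and 0.0639). When the trend with transcript length described below was removed, an alternative chosen after seeing the data, 3 genes of this list were called higher. In that fit 185 of all 13347 genes were called higher, against 48 in the main fit.

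Genes of neuronal maturation and the synaptic vesicle were positive in 29 of 29 cases with a median of 0.40, and in 25 of 29 with a median of 0.23 without wild type replicate 3. Elavl4 was the 1 called, against 0.36% of all genes called higher. The vesicle genes Syt1, Snap25, Syn2 and Syp, the neurofilament gene Nefl and the surface glycoprotein gene Thy1 also had knockout values above all wild type values, which made 7 of the 29, against 8.92% of all genes. Syt1, the calcium sensor of vesicle release, read 78.5, 84.4 and 79.7 FPKM in knockout libraries and 45.4, 75.7 and 46.8 FPKM in wild type libraries, so that wild type replicate 2 came close to the knockout range (0.56, adjusted p = 0.0896). Immature neuron genes had a median of 0.27 (0.06 without wild type replicate 3) and progenitor genes 0.23 (0.09). The 22 genes of cortical excitatory neurons and layers had a median of 0.02 (-0.15). Slc17a7 was the 1 called among these 22, against 0.36% of all genes called higher. No migration or guidance gene was called among 28 tested, of which 12 were positive with all libraries and 4 without wild type replicate 3, with medians of -0.04 and -0.20. The neuronal maturation genes made up 0.524% to 0.61% of the total FPKM in knockout libraries, 0.5% and 0.561% in wild type replicates 1 and 2 and 0.274% in wild type replicate 3.

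The genes lower in knockout cortex included 3 of the extracellular matrix that were called in both fits, against 0.157% and 0.862% of all genes called lower. Fbn1, the microfibril protein fibrillin-1, read 3.03, 2.85 and 2.29 FPKM in knockout libraries and 6.97, 5.14 and 12.1 FPKM in wild type libraries. The highest value was in wild type replicate 3, but without that library the difference was still -0.92 (SE 0.13, limma adjusted p = 0.00711), against -1.22 with it. Adamts2, a protease that trims procollagen, read 1.49, 2.02 and 0.941 FPKM in knockout libraries and 3.77, 3.49 and 3.69 FPKM in wild type libraries (-0.93, SE 0.16, adjusted p = 0.0169; -0.92 without wild type replicate 3). Spon2, a secreted matrix protein, read 0.185, 0.517 and 0.256 FPKM in knockout libraries and 1.86, 1.06 and 4.21 FPKM in wild type libraries (-1.26, SE 0.25, adjusted p = 0.0367; -0.89 without wild type replicate 3). Fbn1 and Adamts2 lost their calls without knockout replicate 3, and Spon2 without any 1 of the knockout libraries. The list of 29 meningeal and matrix genes as a whole followed wild type replicate 3. Its median was -0.85 with all libraries and -0.12 without that library. The summed level was 228, 277 and 252 FPKM in knockout libraries, against 210, 294 and 912 FPKM in wild type libraries, with the highest in replicate 3. Endothelial and pericyte genes (-0.37 and -0.06) and glucocorticoid-responsive genes (-0.73 and -0.15) likewise had medians nearer to 0 without it, with no gene called.

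Among the remaining falls, Per2, a repressor of the circadian clock, read 2.21, 1.98 and 1.67 FPKM in knockout libraries and 5.34, 3.79 and 4.46 FPKM in wild type libraries (-0.90, SE 0.19, limma adjusted p = 0.045; -0.90 without wild type replicate 3). Its partner Per1 read 4, 3.78 and 4.21 FPKM in knockout libraries and 8.01, 4.74 and 9.50 FPKM in wild type libraries and missed the threshold (-0.71, adjusted p = 0.0618). Of 18 clock genes, 16 had negative differences with a median of -0.26 (-0.25 without wild type replicate 3), and 5 had knockout values below all wild type values, against 5.87% of all genes. The sources used here do not give the hour at which tissue was taken. Brpf1, a scaffold of a histone acetyltransferase complex, read 7.33, 7.96 and 6.63 FPKM in knockout libraries and 14, 10.3 and 12.5 FPKM in wild type libraries (-0.67, SE 0.11; -0.65 without wild type replicate 3). Maml1, a coactivator of Notch signalling, read 2.90, 2.77 and 2.66 FPKM in knockout libraries and 5.05, 4.42 and 5.13 FPKM in wild type libraries (-0.63, SE 0.12; -0.60 without wild type replicate 3). The SD of Brpf1 was 0.67 FPKM in knockout and 1.83 FPKM in wild type libraries, and that of Maml1 was 0.12 and 0.39 FPKM. The elongation factor Ell, the chromatin remodelling subunit Baz2a, the helicase family member Sbno2, the Dickkopf receptor Kremen1, the microtubule-associated ubiquitin ligase Mid1 and the Rab exchange factor Dennd3 fell by 0.61 to 0.96 on the log2 scale. Of the genes in this paragraph, Brpf1 and Dennd3 lost their calls without knockout replicate 3 alone, Maml1 also without knockout replicate 2, Mid1 without knockout replicates 2 or 3 or wild type replicate 1, and Per2, Kremen1, Ell, Baz2a and Sbno2 without any 1 of the knockout libraries or wild type replicate 1.

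Chaperones of the unfolded protein response, which respond when folding in the endoplasmic reticulum fails, gave different results with and without wild type replicate 3. With all libraries none of 20 was called and the median was 0.02. Without it the median was 0.19 and 3 were called higher in knockout, against 0.817% of all genes in that fit. The 3 are named here after their values were seen. Hspa5, the chaperone BiP, read 84.5, 79.2 and 78.2 FPKM in knockout libraries and 51.2, 54.3 and 111 FPKM in wild type libraries. Wild type replicate 3 was the highest of the 6 libraries, and without it the log2 difference was 0.60 (SE 0.14, limma adjusted p = 0.0419), against 0.25 with it (adjusted p = 0.515). Xbp1, a transcription factor of this response and of secretory cells, read 29.9, 28.4 and 35.7 FPKM in knockout libraries and 14, 23.1 and 83.6 FPKM in wild type libraries (0.76 without wild type replicate 3, adjusted p = 0.0389; 0.04 with it). Pdia4, a disulfide isomerase, read 26.9, 21.2 and 27.8 FPKM in knockout libraries and 12, 16.2 and 27.5 FPKM in wild type libraries (0.80 without wild type replicate 3, adjusted p = 0.0408; 0.49 with it). These calls rest on 3 knockout and 2 wild type libraries, and they held when the length trend was removed as well. Herpud1, a degradation factor of the same response, read 12.7, 14.4 and 15.1 FPKM in knockout libraries and 16.0, 20.4 and 58.2 FPKM in wild type libraries, the opposite order. Atf6 and Sel1l of this list also had knockout values below all wild type values (-0.35 and -0.23 without wild type replicate 3). That made 3 of the 20, against 5.87% of all genes. In 0 of the 20 did knockout values lie above all wild type values, against 8.92% of all genes. Among 17 targets of the stress factor ATF4, 12 had negative differences with a median of -0.12 (-0.08 without wild type replicate 3). The amino acid transporter gene Slc7a5 and the stress sensor gene Sesn2 were called lower without that library, against 0.862% of all genes. Sesn2 read 1.49, 1.50 and 1.76 FPKM in knockout libraries and 2.23, 6.25 and 11.5 FPKM in wild type libraries (-0.91, adjusted p = 0.0437; -1.36 with all libraries, adjusted p = 0.0514). Slc7a5 read 41.0, 42.2 and 38.6 FPKM in knockout libraries and 58.8, 72.8 and 34.5 FPKM in wild type libraries (-0.68, adjusted p = 0.0246; -0.37 with all libraries).

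166 genes were called only without wild type replicate 3, 69 higher and 97 lower. In 58 of the 69 higher genes wild type replicate 3 lay above both other wild type libraries, and in 93 of the 97 lower genes it lay below both. The choice of these genes favours such positions, since each gained its call when that library was left out. The largest rises among them were Tmem107, a protein of the ciliary transition zone (log2 difference without wild type replicate 3 of 1.20), Cdc42ep2, an effector of Cdc42 (1.15), the immediate-early transcription factor Egr1 (1.10), the oligoribonuclease Rexo2 (1.03), the pentose phosphate enzyme Rpe (0.93) and the vesicle tethering subunit Trappc13 (0.90). Cdc42ep2 read 9.80, 10.5 and 11.5 FPKM in knockout libraries and 2.81, 6.16 and 8.36 FPKM in wild type libraries, so its groups did not overlap even with wild type replicate 3. Rexo2 read 19.2, 16.5 and 26.5 FPKM in knockout libraries and 8.17, 11.0 and 41.0 FPKM in wild type libraries, so that its direction against the other wild type libraries was not shared by wild type replicate 3. Large falls were those of the DNA demethylation enzyme Tet2 (-1.14), the muscle calcium channel subunit Cacng1 (-1.03), the centrosome protein Nin (-0.97), the transcriptional repressor Spen (-0.96) and the translation repressor partner Gigyf1 (-0.95). Tet2 read 5.42, 4.89 and 2.80 FPKM in knockout libraries and 13.8, 8.08 and 5.60 FPKM in wild type libraries. Gigyf1 read 5.62, 6.40 and 4.95 FPKM in knockout libraries and 14.3, 9.71 and 7.74 FPKM in wild type libraries. For both, wild type replicate 1 was the highest library and knockout replicate 3 the lowest.

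That order ran through the libraries with transcript length. Lengths of the longest transcript from GENCODE M21 matched 97.2% of the genes tested, with a median of 3446 bases. Genes with transcripts under 1 kb deviated from the mean of the 6 libraries by a median of 0.32 in knockout replicate 3 and -0.19 in wild type replicate 1, and genes over 8 kb by -0.33 and 0.19. The median difference between knockout and wild type went with length, at 0.11 for the 612 genes under 1 kb and -0.14 for the 807 genes over 8 kb, or 0.21 and -0.25 without wild type replicate 3. Called genes had median lengths of 2977 bases when higher in knockout and 4826 bases when lower, and genes called only without wild type replicate 3 had 2504 and 5655 bases. When the trend of each library with length was removed, 185 genes were called higher and 69 lower, and 56 of the 58 genes named above as called in both fits kept their calls. With wild type replicate 3 left out as well, 204 were called higher and 135 lower, and 53 of the 58 kept their calls. The cholesterol list kept its median under these corrections, at 0.41 and 0.39. Whether the trend comes from the RNA or from the cells was not tested.

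**Figure D4:**
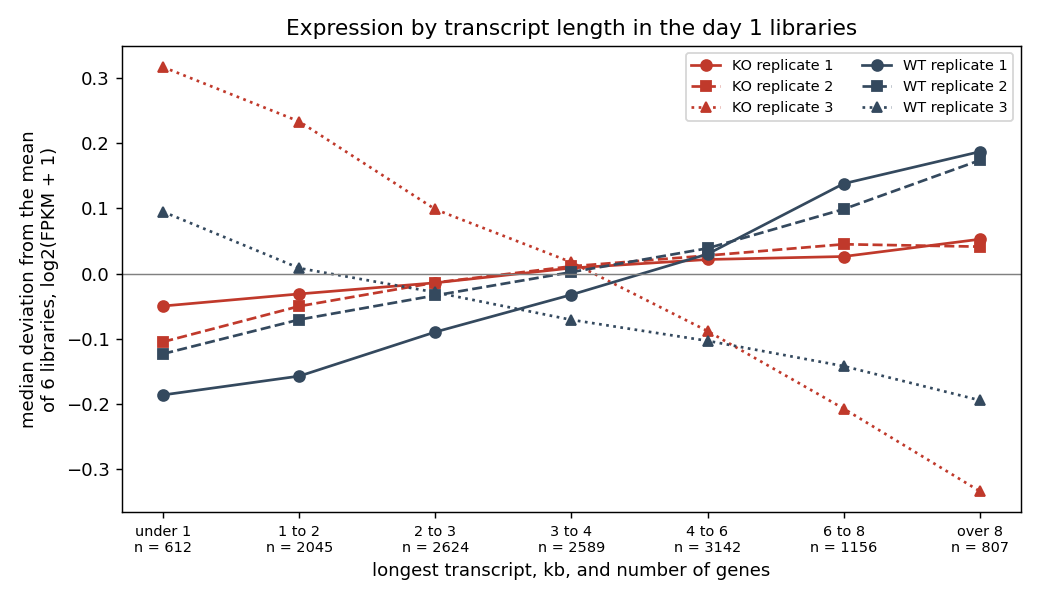
Median deviation of genes from the mean of the 6 day 1 libraries in log2(FPKM + 1), by length of the longest transcript in kb, with the number of genes under each bin. Red lines are knockout and grey-blue lines wild type libraries. Knockout replicate 3 falls from 0.32 to -0.33 from the shortest to the longest bin, wild type replicate 3 falls less, and wild type replicate 1 climbs.

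Of the 58 genes called in both fits, 47 had the same sign at day 7 and 49 at day 30, against 47.9% and 57.7% of all genes. Since the 58 were chosen by their day 1 values, their sizes on other days are not compared. Tmem254 was called at day 7 (-1.47, adjusted p = 0.0079) and at day 30 (-1.22, adjusted p = 0.0251), and Dynlt1b at day 30 (1.11, adjusted p = 0.02). Tmem254 read 13.1, 13.4 and 14.2 FPKM in knockout libraries and 38.8, 41.2 and 37.6 FPKM in wild type libraries at day 7. Plac9, Ndn and Zkscan3 kept log2 differences of -2.17, 0.76 and 0.62 at day 7 and -1.69, 1.13 and 0.56 at day 30 without a call on either day. The cholesterol enzymes differed by -0.12 (Sqle), -0.12 (Cyp51), 0.02 (Hsd17b7), 0.14 (Msmo1) and -0.28 (Mvd) at day 7. At day 30 the differences were 0.53, 0.16, 0.07, 0.25 and 0.30 in the same order. A contrast of the day 1 difference with the mean of the later differences called 0 genes in limma, while 1669 had an unadjusted p under 0.05, so no gene was shown to differ between knockout and wild type at day 1 more than later. No other tool was run, since the files hold no counts.

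**Figure D5:**
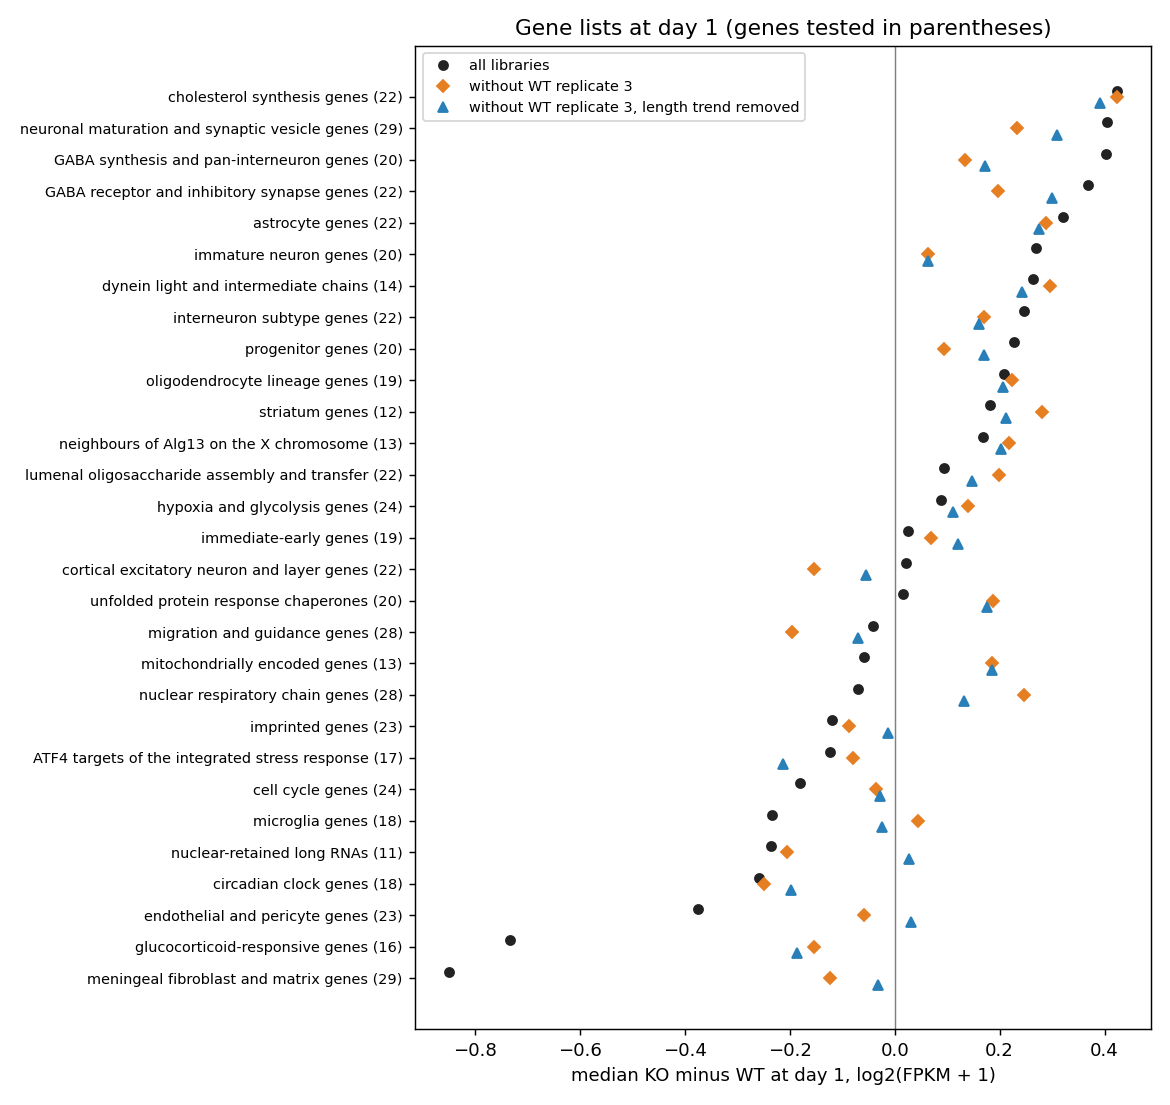
Median knockout minus wild type difference at day 1 in log2(FPKM + 1) for the gene lists with at least 10 genes tested, with all libraries (black circles), without wild type replicate 3 (orange diamonds), and without that library after the length trend was removed (blue triangles). The cholesterol list has the highest median in each case, while the meningeal, glucocorticoid and endothelial lists lie far below 0 only with all libraries.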

How the data were processed

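The authors deposited 1 table with FPKM of 28852 genes in 18 libraries of mouse cerebral cortex, 1 column per library. Per the submitters' processing notes, the build was GRCm39 and the tools included RSEM 1.3.1, Bowtie2 and DESeq2 1.4.5. The sources used here do not give their order, the annotation or any filter. FPKM is relative to the fragment total of a library, so abundant foreign transcripts in a library can lower its other values. The FPKM of all genes summed to 314859 to 394975 in the day 1 libraries, with the highest sum in wild type replicate 3. The median-of-ratios scale factor, larger where typical values are higher, was 1.118 in that library and 1.025 to 1.091 in the other day 1 libraries. Relative depth was estimated from ratios of FPKM values under 0.15.

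The 13347 genes that reached 1 FPKM in 3 or more of the 18 libraries were tested. limma 3.58.1 in R 4.3.3 was fitted to log2(FPKM + 1) with the 6 group means and a mean-variance trend over all 18 libraries, and was tested on simulated data. Exact permutation tests used scipy 1.17.1. Named genes were Alg13, the 15 largest rises and 15 largest falls called with and without wild type replicate 3 (mean of at least 1 FPKM in the higher group), the 6 largest rises and falls called only without it, and called members of the 40 gene lists or up to 3 with the smallest p. Some results for genes this rule selects are left out here. Unnamed gene models were counted only, and members of lists without a call were named only in part. The comparison, gene lists and rules were chosen with earlier results of these data known. Promoter windows and copies were matched by symbol to RefSeq on GRCm38.p6, and 14 of 22 cholesterol genes matched.

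Alternatives were each library left out, another pseudocount and filter, other scalings, array weights, day 1 libraries alone, a replicate block and a Y-linked covariate. Removal of the length trend (lowess, span 0.3) and combinations of libraries were added after seeing the data. Same-numbered knockout and wild type libraries deviated together with correlations of 0.025, 0.131 and 0.098, and differently numbered ones with -0.125 to 0.077. Each knockout library thus correlated most with the wild type library of its own number, though weakly. The main fit did not take the numbers as pairs, and whether they mark pairs remains unknown.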

Additional observations from a re-analysis of the deposited data

How the results depend on the processing

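The counts of called genes depended on the libraries and on the spread assumed. The sign of each of the 58 genes called in both fits was the same in every alternative run. Their knockout and wild type values did not overlap, so leaving out libraries could not have changed that sign. Leaving out 1 replicate gave 8 to 897 genes higher in knockout, 2 to 634 lower and 0 to 210 whose day 1 difference departed from later days. The higher and lower counts were 78 and 24 with a pseudocount of 0.1, 79 and 31 with the filter over the day 1 libraries, 27 and 13 with median-of-ratios scaling, 40 and 9 with quantile normalization, 2 and 3 with array weights, 0 and 0 with the day 1 libraries alone, and 736 and 408 with a Y-linked covariate. The replicate block, which treats same-numbered libraries of a day as a set, gave 1 and 4, and 4 of the 58 genes kept their call. Whether the replicate numbers mark such sets is unknown. Among alternatives chosen after seeing the data, the counts were 1267 and 1033 without wild type replicate 3 and with the Y-linked covariate, 185 and 69 with the length trend removed, 204 and 135 with wild type replicate 3 left out as well, 14 and 4 without knockout replicate 3 and wild type replicate 1, and 1122 and 720 without wild type replicates 2 and 3, where wild type replicate 1 stood alone and was assumed to vary like the other groups. The contrast of day 1 with later days called 1 gene with no filter, 25 with the Y-linked covariate, 569 with that covariate and without wild type replicate 3, 1 with the length trend removed and without wild type replicate 3, 1 without knockout replicate 3 and wild type replicate 1, and 916 without wild type replicates 2 and 3. The cause of these changes was not tested, apart from the smaller number of samples in some fits. The Alg13 difference ran from -0.45 to -0.04 when 1 replicate was left out, and was 0.0171 with array weights and 0.0827 without knockout replicate 3 and wild type replicate 1. Rexo2 ran from -0.0719 to 1.03 and Xbp1 from -0.49 to 0.76 when 1 replicate was left out. Xbp1 was -0.0083 with quantile normalization and -0.0086 with the length trend removed, and without knockout replicate 3 and wild type replicate 1 Xbp1 was -0.58, Rexo2 -0.25 and Alg14 -0.0703. Median-of-ratios scaling and quantile normalization reversed no other gene named. No counts were given, so depth could not be tested.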

Other observations

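Gene lists not described above held no gene called with all libraries. The nuclear respiratory chain genes had a median difference of -0.07 with all libraries and 0.25 without wild type replicate 3, where all 28 were positive. Their summed level was 3485, 3452 and 4948 FPKM in knockout libraries and 3423, 3218 and 6755 FPKM in wild type libraries, so that wild type replicate 3 and knockout replicate 3 were both high. Their median transcript length was 1376.5 bases, and with the length trend removed and wild type replicate 3 left out the median was 0.13. The mitochondrially encoded genes had medians of -0.06 and 0.18 in the same order of fits. Hypoxia and glycolysis genes had medians of 0.09 and 0.14, immediate-early genes 0.02 and 0.07, cell cycle genes -0.18 and -0.04, microglia genes -0.23 and 0.04, and nuclear-retained long RNAs -0.24 and -0.21. The 13 tested genes of the list of X chromosome neighbours, which includes Alg13 itself, had medians of 0.17 and 0.22, with 10 and 8 positive. Red blood cell genes had medians of -0.87 and -0.57 over 9 genes. Genes of skeletal muscle (-0.13 and -0.03), skin and bone (-0.21 and 0.03), choroid plexus and ependyma (0.65 and 0.41), olfactory bulb and hippocampus (0.14 and -0.18) and thalamus, septum and hypothalamus (0.04 and -0.09) rested on 3 to 8 genes each. The 5 sex-linked genes, Xist and 4 Y-linked genes, had medians of 0.48 and 0.72. In both fits 4 were positive and 1, Xist, was negative.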
